A study of Homo sapiens with 4 samples.

Results

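The 84 genes described here encode integrin subunits, laminin chains, collagen chains, fibronectin (FN1) and transglutaminase 2 (TGM2). They were chosen by symbol among the 18377 genes of the array that had rows annotated with exactly 1 symbol. The symbol rule uses no expression value, but it was set with earlier results of these data known. Of these, 25 are integrin receptor subunits (17 alpha and 8 beta), and 54 are extracellular matrix ligands (10 laminin chains, 43 collagen chains and FN1). The remaining 5 are neither: TGM2, a crosslinking enzyme, and ITGB1BP1, ITGB1BP2, ITGB3BP and ITGBL1, which share the symbol stem but encode no receptor subunit. ITGA1 shares its row with another gene and is not analysed here.

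The cells were HuCCT1, a line established from human bile duct cancer (cholangiocarcinoma), and total RNA was hybridised to Affymetrix Human Gene 1.0 ST arrays. One array each was made from cells given GEM and VPA together (GEM_VPA, called the combination below), cells given VPA alone, cells given GEM alone, and untreated cells, the control that the agents are set against. VPA and GEM are read here as valproic acid, a histone deacetylase inhibitor, and gemcitabine, a nucleoside analogue that interferes with DNA synthesis. The labels name no dose or exposure time, all 4 arrays share the 1 cell line, and no condition was replicated. Differences between 2 arrays therefore carry no error and no p-value, and the number of arrays limits their precision.

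Integrins are membrane receptors made of an alpha and a beta chain, which bind matrix proteins outside the cell and couple to the actin or keratin cytoskeleton inside. Laminins are trimers of an alpha, a beta and a gamma chain and form basement membranes with type IV collagen, while fibronectin and the fibrillar collagens form the interstitial matrix. Bile duct epithelium rests on a laminin-rich basement membrane, and TGM2 links matrix proteins such as fibronectin to each other and also associates with integrins at the cell surface.

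Values are normalized log2 intensities, and a difference of 2 values is given as a log2 ratio, or as a fold after conversion. In a comparison, a gene was counted where the fold was at least 2 in either direction, the limits of 2.0 and 0.5 that the submitters' design text gives for the ratio, and when the higher of both values reached the median of all rows on its array. Array medians lay between 7.87 and 7.92, and 35 of the 84 genes reached the median on every array, 45 on none and 4 on some (ITGA7, ITGAX, COL8A2 and COL22A1). Among receptors 9 of 25 reached it on every array, and among ligands 23 of 54.

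The arrays formed close pairs that cross the labels. Over the 28869 rows, the correlation was 0.9962 between the combination and untreated arrays, 0.9955 between the VPA and GEM arrays, and 0.984 to 0.987 for the other pairs. Directions below follow the labels as given, and with 1 array a condition no result can be given without one of these arrays. All 7 epithelial markers (KRT7, KRT19, KRT8, KRT18, EPCAM, CDH1 and SOX9) reached the median on every array. Of 8 fibroblast markers, COL1A1, itself one of the 84 genes, reached it on every array and the other 7 on none, and all 4 endothelial markers stayed below it. Among 4 measured leukocyte markers CD68, a lysosomal protein also made by other cells, reached the median on every array and PTPRC, CD3E and CD14 on none.

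RefSeq promoter windows (GRCh38.p14) were found for 60 of the 84 genes. Those of the ligand and receptor genes counted as higher on the VPA array are shown for the 250 bases before the annotated start, because each of these genes was at least 2-fold higher there than on the untreated array. Capitals mark matches to any of 4 motifs, searched on both strands. An AP-1 element was read as TGACTCA. A second motif was the CCAAT box. The other motifs were chosen after the sequences had been read, and were the cyclic AMP response element, TGACGTCA, and the GC box. The GC box was taken as GGGCGG, and its matches overlap each other in the FN1 window. LAMB3 has 3 annotated starts, and the window with the AP-1 match is shown.
FN1, chr2:215436069-215436318, minus strand: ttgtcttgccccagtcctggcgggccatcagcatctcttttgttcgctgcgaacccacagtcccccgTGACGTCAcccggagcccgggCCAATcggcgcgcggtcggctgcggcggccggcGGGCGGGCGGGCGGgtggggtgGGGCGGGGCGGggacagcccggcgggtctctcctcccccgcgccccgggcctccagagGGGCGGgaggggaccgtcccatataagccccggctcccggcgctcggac
LAMB3, chr1:209651375-209651624, minus strand: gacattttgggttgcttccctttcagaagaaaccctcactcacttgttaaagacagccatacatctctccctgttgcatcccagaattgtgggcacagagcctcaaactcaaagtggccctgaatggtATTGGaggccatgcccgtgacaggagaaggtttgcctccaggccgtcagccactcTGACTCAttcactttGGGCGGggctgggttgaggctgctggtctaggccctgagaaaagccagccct
LAMB2, chr3:49133051-49133300, minus strand: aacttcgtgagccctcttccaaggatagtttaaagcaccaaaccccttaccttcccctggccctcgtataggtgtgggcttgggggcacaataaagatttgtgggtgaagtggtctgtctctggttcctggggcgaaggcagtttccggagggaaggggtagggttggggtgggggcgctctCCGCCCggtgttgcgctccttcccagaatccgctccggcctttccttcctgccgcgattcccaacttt
ITGA2, chr5:52989102-52989351, plus strand: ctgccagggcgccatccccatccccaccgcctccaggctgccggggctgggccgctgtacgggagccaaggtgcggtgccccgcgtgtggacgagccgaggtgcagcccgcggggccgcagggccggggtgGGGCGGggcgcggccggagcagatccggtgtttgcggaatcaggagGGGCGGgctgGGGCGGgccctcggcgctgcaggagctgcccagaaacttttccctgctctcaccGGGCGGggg
COL12A1, chr6:75206054-75206303, minus strand: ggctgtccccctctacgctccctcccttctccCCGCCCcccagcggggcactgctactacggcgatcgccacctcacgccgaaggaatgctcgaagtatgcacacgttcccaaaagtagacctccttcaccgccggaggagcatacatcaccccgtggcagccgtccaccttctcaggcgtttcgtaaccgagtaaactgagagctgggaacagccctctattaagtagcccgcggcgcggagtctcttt
The cyclic AMP response element was found in FN1 alone of the 60 genes and in 2.03% of the 27305 genes with a window. The AP-1 element was found in LAMB3 alone of the 60 and in 5.19% of all genes. CCAAT boxes were present in 18 of 60 genes (30.0%) and in 37.0% of all genes, and GC boxes in 37 of 60 (61.7%) and in 46.2% of all genes. All 5 windows shown held a GC box. A match is a description of the letters, not of a bound site.

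The VPA array was first set against the untreated array. Of the 84 genes, 6 were counted as higher and 0 as lower, against 1.20% of all genes higher and 1.32% lower. These were 4 of 54 ligands (FN1, LAMB2, LAMB3 and COL12A1), 1 of 25 receptors (ITGA2), and TGM2. The medians over all receptors and over all ligands were near that of all genes, with log2 ratios of 0.08 for receptors, 0.09 for ligands and -0.01 for all genes. They include the 14 receptors and 29 ligands that lay below the array medians on every array.

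FN1, the soluble and fibrillar glycoprotein that joins integrins to collagen and heparan sulfate, had log2 levels of 9.95 on the combination array, 11.52 on the VPA array, 10.90 on the GEM array and 8.82 on the untreated array. It was highest with VPA and lowest without drug, and every treated array lay above the untreated one. On the VPA array it was 6.53-fold higher than untreated, rank 4 from the top of 11611 genes at level.

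TGM2, the crosslinking enzyme, followed the same order of arrays, at 12.11 with the combination, 13.52 with VPA, 12.96 with GEM and 10.90 untreated. It was 6.16-fold higher with VPA, rank 7 from the top. None of the other 8 transglutaminase genes measured, TGM1, TGM3 to TGM7 and the factor XIII genes F13A1 and F13B, was counted in any of the 6 comparisons. All of them except TGM1 lay below the median on every array, where the level rule lets no gene be counted. The shares of all genes counted in 1 direction lay between 0.0163% and 2.28%.

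ITGA2 encodes the alpha2 chain that pairs with ITGB1 to form a receptor for collagen and laminin. Its levels were 11.55 with the combination, 12.22 with VPA, 11.69 with GEM and 10.51 untreated, so that all treated arrays were again above the untreated array. It was 3.26-fold higher with VPA. The partner chain ITGB1 stood at 12.20, 12.26, 12.27 and 12.02 on the combination, VPA, GEM and untreated arrays, a span of under 2-fold. The other collagen-binding alpha chains measured, ITGA10 and ITGA11, stayed below the array medians.

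LAMB3, the beta chain of laminin-332 in epithelial anchoring structures, stood at 10.31 with the combination, 11.35 with VPA, 11.01 with GEM and 9.81 untreated, and was 2.90-fold higher with VPA. LAMB2, the beta2 chain found in laminin-521 and synaptic and kidney basement membranes, stood at 9.47, 10.71, 10.53 and 9.41 on the same arrays and was 2.46-fold higher with VPA. In contrast to FN1, TGM2 and ITGA2, LAMB2 was nearly as low with the combination as without drug.

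All 10 laminin chains measured had log2 ratios above 0 with VPA (median 0.41), against 8843 of 18377 genes. LAMA5, LAMB1 and LAMC1, which together make laminin-511, had ratios of 0.61, 0.66 and 0.71 and were not counted. LAMA1, LAMA2, LAMA4 and LAMB4 lay below the median on every array.

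Of the collagens only COL12A1, a fibril-associated collagen that decorates type I collagen fibres, was counted. It stood at 10.82 with the combination, 10.98 with VPA, 10.75 with GEM and 9.97 untreated, and was 2.02-fold higher with VPA. This is just past the limit, and the log2 ratio fell to 0.96 once arrays were centred on their medians, so that the call was lost. The 43 collagens had a median log2 ratio of 0.05 with VPA. The 11 fibrillar collagens lay between -0.11 and 0.29, the 6 type IV chains between -0.11 and 0.44 with all of them below the array medians, and the 5 type VI chains between -0.04 and 0.36. The summed log2 level of the 8 fibroblast markers was 53.2 with the combination, 53.8 with VPA, 53.7 with GEM and 53.6 untreated, with DCN and LUM at 5.28 or below on every array.

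**Figure D1:**
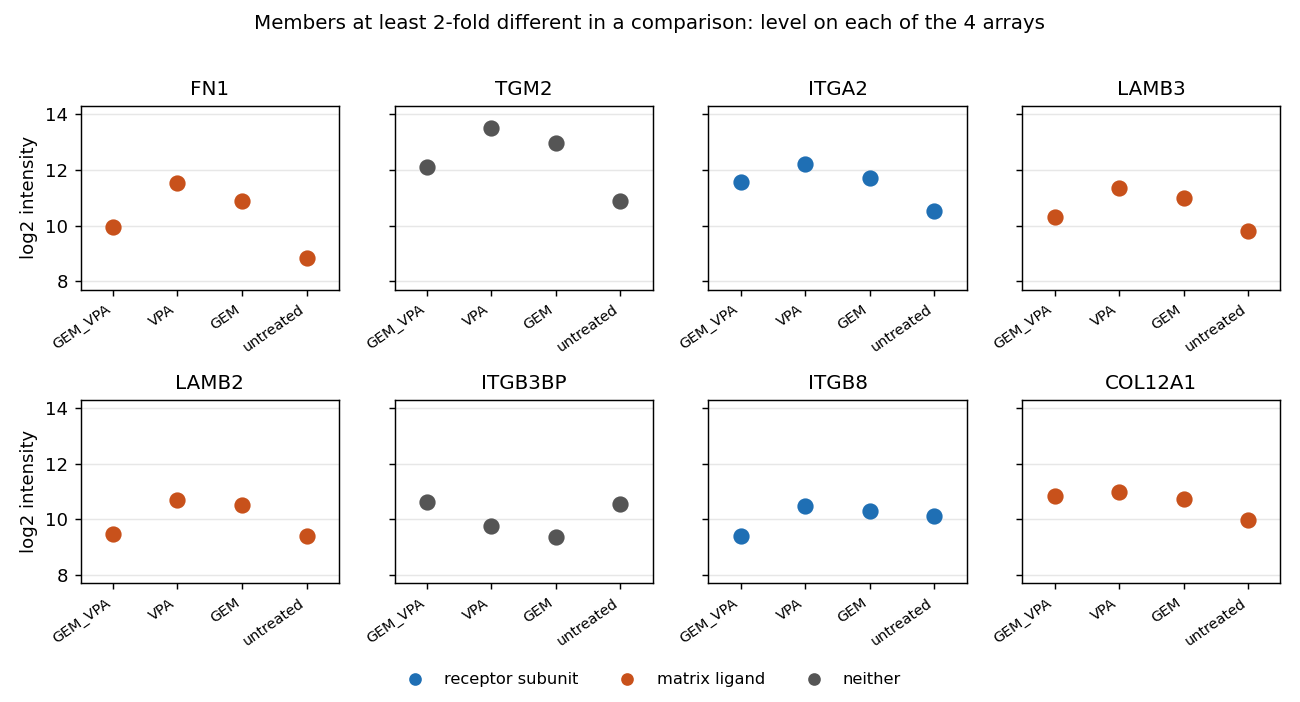
Log2 intensity (vertical axis) of the 8 genes counted in at least 1 comparison, on each of the 4 arrays (horizontal axis), with 1 point per array and no error because no condition was replicated. FN1, TGM2, ITGA2, LAMB3, COL12A1 and LAMB2 were lowest on the untreated array, and LAMB2 was nearly as low on the combination array. ITGB3BP was low on the VPA and GEM arrays.

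Receptor subunits other than ITGA2 were not counted with VPA. ITGAX lay just outside the limit at 0.96. It encodes the alpha chain of a leukocyte integrin and stood at 7.23 with the combination, 8.17 with VPA, 7.82 with GEM and 7.21 untreated, so that it reached the array median only with VPA. Its partner ITGB2 stayed between 7.64 and 7.84 and ITGAL and ITGAM below the median on every array. The summed log2 level of the 4 leukocyte markers was 28.5 with the combination, 30.4 with VPA, 30.3 with GEM and 29.1 untreated. Of these markers CD68 varied most, at 9.70, 10.99, 10.98 and 10.05, while PTPRC was between 5.21 and 5.34 on all arrays. The part of these markers in the ITGAX result was not tested.

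The laminin-binding alpha chains ITGA3 and ITGA6 had log2 ratios of 0.62 and 0.07 with VPA, and ITGB4, which pairs with ITGA6 in hemidesmosomes, had 0.61. The RGD-binding chains ITGA5 and ITGAV had 0.31 and 0.37, and the beta chains ITGB5 and ITGB8, which pair with ITGAV, had -0.04 and 0.34. ITGB5 turned to 0.08 when the columns were quantile-normalized again, so that its direction is not settled. ITGB6, an epithelial partner of ITGAV, lay below the median on every array.

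GEM alone was compared with untreated cells in the same way. FN1, TGM2, ITGA2, LAMB3 and LAMB2 were again higher, and ITGB3BP was lower. These were 5 of 84 genes higher and 1 lower, against 0.936% of all genes higher and 1.90% lower. FN1 was 4.23-fold, TGM2 4.18-fold, LAMB3 2.29-fold, ITGA2 2.27-fold and LAMB2 2.17-fold higher, from the levels given above. Because this comparison and the one with VPA use the same untreated array, the recurrence of these names is no independent support. The comparisons that follow reuse these arrays as well.

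The receptors had a median log2 ratio of 0.04 and the ligands of 0.10 with GEM, against -0.01 for all genes. Laminin chains were above 0 in 9 of 10 cases (median 0.43), against 8924 of 18377 genes. LAMA5, LAMB1 and LAMC1 were at 0.54, 0.70 and 0.75. COL12A1, at 0.78, was the highest collagen and was not counted. ITGB4 was the next receptor after ITGA2 and the gene nearest outside the limit, with levels of 11.31 with the combination, 11.95 with VPA, 12.12 with GEM and 11.34 untreated. ITGB5 was the lowest receptor, at 11.44, 11.34, 10.91 and 11.38 on these arrays. The GEM array alone was low, with a log2 ratio of -0.48 over untreated.

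ITGB3BP encodes CENPR, a centromere protein first found as a binding partner of the integrin beta3 tail. It stood at 10.62 with the combination, 9.75 with VPA, 9.37 with GEM and 10.53 untreated, so that both single-drug arrays lay below the other arrays. With GEM it was 2.24-fold lower than untreated. ITGB1BP1, an adaptor that binds the beta1 tail, had log2 ratios of -0.34 with VPA and -0.41 with GEM and was not counted. ITGB1BP2 and ITGBL1 lay below the median on every array.

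**Figure D2:**
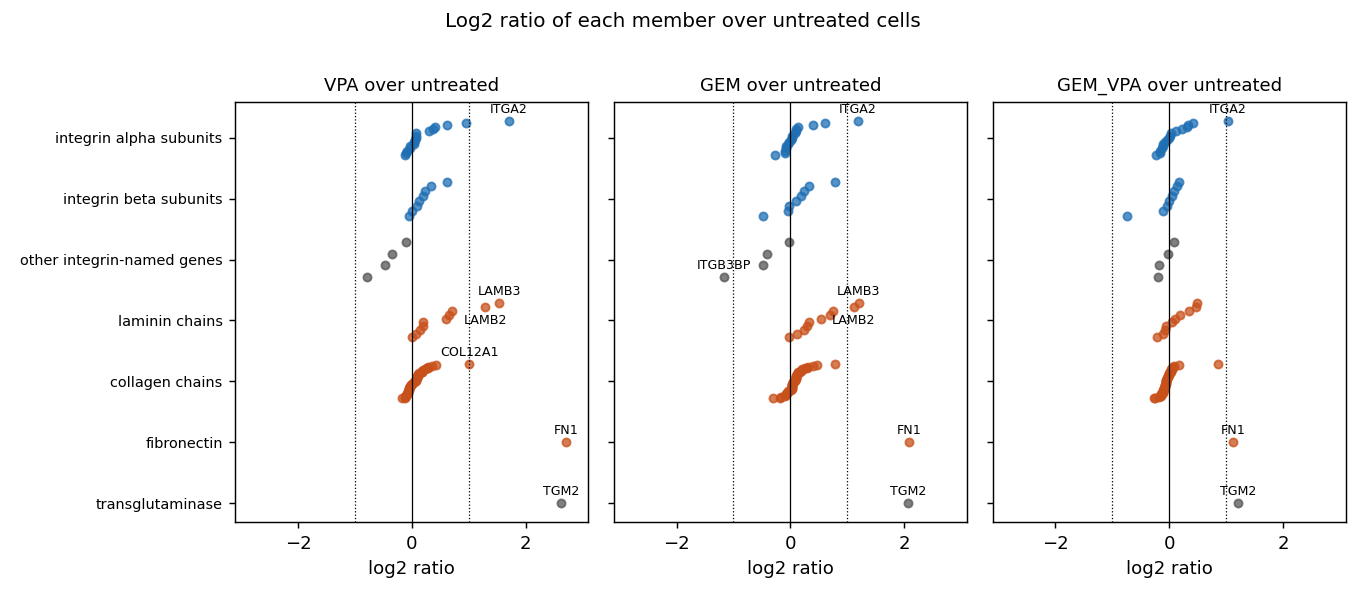
Log2 ratio over untreated (horizontal axis) of each of the 84 genes by class (vertical axis), 1 panel per treated array, with 1 point per gene and dotted lines at the 2-fold limits. Most integrins and collagens lie close to 0 in each panel, and the named genes past the limits are FN1, TGM2 and ITGA2 in all 3 panels, LAMB2 and LAMB3 with each single drug, COL12A1 with VPA and ITGB3BP with GEM.

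Set against no drug, the combination array had few 2-fold differences anywhere, with 0.0762% of all genes higher and 0.0163% lower. TGM2 was 2.32-fold, FN1 2.19-fold and ITGA2 2.05-fold higher, so that 3 of the 84 genes were higher and 0 lower, 1 of the 3 a receptor and 1 a ligand. Their ranks from the top were 7, 11 and 14 of 11489 genes at level. COL12A1 was nearest outside the limit at 0.85, and LAMB3, LAMC1 and LAMB1 were at 0.50, 0.47 and 0.34. LAMA5 and LAMB2 were at -0.20 and 0.06.

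Over all receptors and over all ligands the medians were near 0 on the combination array, with log2 ratios of 0.00 and -0.05 against -0.03 for all genes. Of these, 14 of 25 receptors and 29 of 54 ligands lay below the array medians on every array, so that both medians mostly describe dim genes. Receptors that passed the level rule had a higher median, given below with the dependence on processing. ITGB8, whose alpha partner is ITGAV and whose product activates latent TGF-beta, was the lowest of the 84 genes at -0.73 and was not counted. Its levels were 9.39 with the combination, 10.46 with VPA, 10.31 with GEM and 10.12 untreated, so that the combination array alone was low. ITGA6 was highest with the combination, at 12.17 against 11.94 with VPA, 11.96 with GEM and 11.86 untreated.

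Adding VPA to GEM was then examined by setting the combination against GEM alone. LAMB2 was 2.08-fold lower and ITGB3BP 2.37-fold higher with the combination, 1 gene of 84 each way, against 1.13% of all genes lower and 2.28% higher. FN1 lay just outside the limit at -0.95, and was at -1.03 and counted when the columns were quantile-normalized again. ITGB8, TGM2, ITGB4, LAMA5 and LAMB3 had log2 ratios of -0.92, -0.85, -0.81, -0.74 and -0.70. ITGB5 and ITGAV were the highest receptors at 0.53 and 0.41. Ligands had a median of -0.12 with 48 of 54 below 0, and receptors of -0.05 with 16 of 25 below 0, against -0.02 and 9693 of 18377 for all genes.

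Adding GEM to VPA was examined by setting the combination against VPA alone. FN1 was 2.98-fold, TGM2 2.66-fold, LAMB2 2.36-fold, ITGB8 2.11-fold and LAMB3 2.06-fold lower with the combination. These were 5 of 84 genes lower and 0 higher, against 1.06% of all genes lower and 0.936% higher. LAMB3 had a log2 ratio of -0.98 once arrays were centred on their medians and was then not counted. ITGAX was just outside the limit at -0.94, and ITGA2 was at -0.67. Ligands had a median of -0.12 with 46 of 54 below 0, and receptors of -0.08 with 21 of 25 below 0, against -0.01 and 9511 of 18377 for all genes.

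Between the single drugs, 0 of the 84 genes were counted for VPA over GEM, against 0.169% of all genes higher and 0.0218% lower. The largest log2 ratios were 0.63 for FN1, 0.56 for TGM2, 0.53 for ITGA2, 0.46 for ITGAV and 0.44 for ITGB5.

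**Figure D3:**
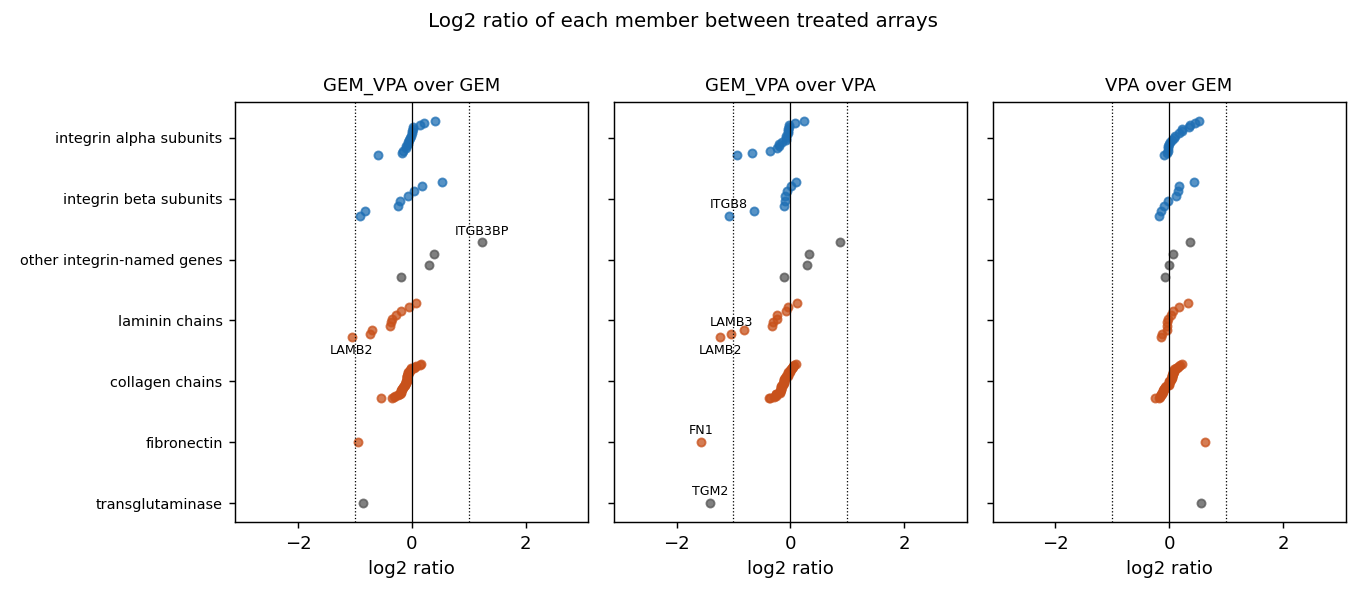
Log2 ratio of each of the 84 genes (horizontal axis) by class (vertical axis) for the combination over GEM, the combination over VPA, and VPA over GEM, with 1 point per gene and dotted lines at the 2-fold limits. Laminin chains, FN1 and TGM2 lie mostly below 0 in the panels with the combination, and no gene passes a limit between the single drugs.

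How the arrays order themselves was also read gene by gene over the 37 genes whose mean level reached the mean array median. VPA was the highest array for 21 of them, GEM for 11, the combination for 3 and untreated for 2. Over all 11285 genes at that level the highest array was VPA for 20.2%, GEM for 25.3%, the combination for 23.1% and untreated for 31.4%. Among the 9 receptors in that set the lowest array was untreated for 5 and the combination for 2, and among the 25 ligands it was the combination for 13 and untreated for 10. Over all genes at that level it was the combination for 26.0% and untreated for 19.2%. The difference between receptors and ligands in these orders was not tested.

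Separation of the arrays was counted where a gene's mean level reached the mean array median and the gap was at least 0.25 on the log2 scale, both chosen after the data were seen. Both single-drug arrays lay so above both other arrays for 9 of the 84 genes, against 6.57% of all genes. These were 1 receptor, ITGB4, 7 ligands (COL1A1, COL6A1, FN1, LAMA5, LAMB1, LAMB2 and LAMB3), and TGM2. LAMB2 had the widest gap, 1.06. ITGAX had the same order with a gap of 0.59 and was not counted, because its mean level was below the limit. The reverse order was found for ITGB3BP and ITGB1BP1, against 11.5% of all genes, and also for ITGB1BP2, below the level limit, with a gap of 0.30. Both arrays with VPA lay above both without it by that gap for ITGAV alone (0.849% of all genes) and below them for no member (0.212%). ITGAV, the alpha chain shared by several RGD-binding integrins, stood at 10.94 with the combination, 10.99 with VPA, 10.53 with GEM and 10.62 untreated. No member separated the arrays with GEM from those without it at this gap (0.0109% of all genes above, 0.00% below).

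The departure from additivity is the log2 ratio of the combination over untreated less the sum of both single-drug ratios over untreated, and is 0 where the separate changes add. It reached -1 or lower for 10 of 84 genes, against 4.74% of all genes, and 1 or higher for 1, ITGB3BP at 2.03, against 8.33%. FN1 was at -3.66, TGM2 at -3.47, LAMB2 at -2.35, LAMB3 at -2.24 and ITGA2 at -1.85. The rest were ITGAX, ITGB4, LAMA5, ITGB8 and LAMB1, between -1.55 and -1.02, of which ITGAX reached the array median only with VPA. By class these were 4 of 25 receptors, 5 of 54 ligands and TGM2. The departure of ITGAV was 0.04.

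**Figure D4:**
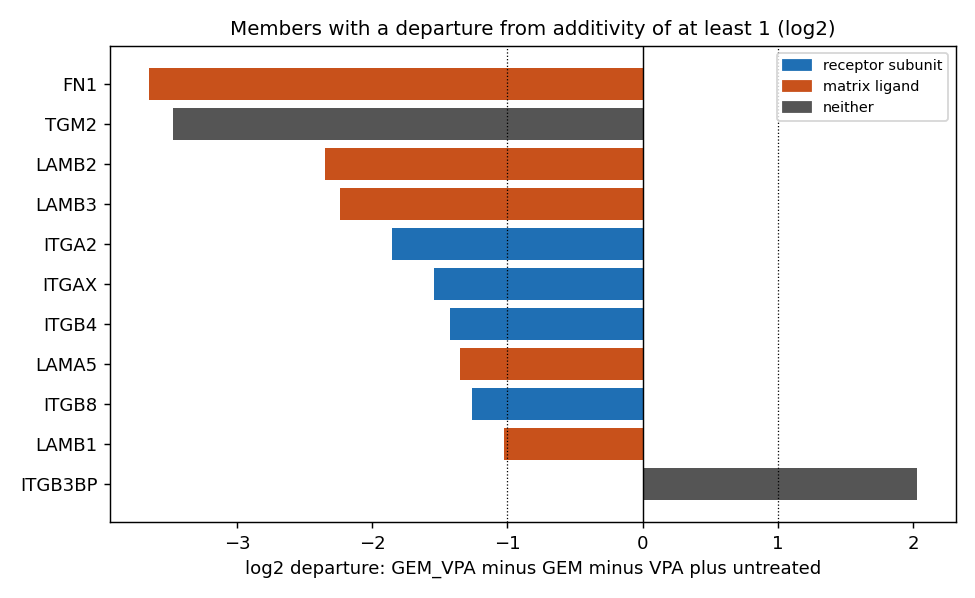
Departure from additivity on the log2 scale (horizontal axis) of the 11 genes where it was at least 1 in size, coloured by role, with dotted lines at -1 and 1 and no error because each value uses 4 single arrays. FN1 and TGM2 have the lowest values, and ITGB3BP is the only gene above 0.

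Each drug's effect, averaged over presence and absence of the other, could be tested with limma in an additive model on the 4 arrays. At an adjusted p of 0.05 it called 0 of 39 members at level for VPA and 0 for GEM, and 0 of 11808 genes for either drug. At an unadjusted p under 0.05 it gave 0 of the 39 members for each drug, and 22 of all genes for VPA and 0 for GEM. The average VPA effect on ITGA2 was 0.78 ± 0.52 (SE, limma, adjusted p = 1.00), on FN1 0.88 ± 0.93 and on TGM2 0.89 ± 0.89, where the error also contains the departure from additivity.

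Related matrix and adhesion genes were read from lists. Of 18 other matrix ligands of integrins, 5 were counted as higher with VPA, 2 with GEM and 1 with the combination over untreated, and 0 as lower. Over all genes the shares counted as higher were 1.20%, 0.936% and 0.0762%. The list had median log2 ratios of 0.07, -0.01 and 0.00 in these comparisons. CCN1, a matricellular protein, was higher with VPA (1.87) and GEM (1.26), and THBS1, thrombospondin 1, likewise (1.09 and 1.15). SPP1, osteopontin, an RGD ligand of ITGAV integrins, stood at 9.13 with the combination, 8.91 with VPA, 7.28 with GEM and 7.65 untreated. It was thus high on both arrays with VPA, and was 1.26 with VPA and 1.48 with the combination over untreated. MFGE8, another RGD ligand, was at 1.25 with VPA, and CCN2 at 1.15. For VPA over GEM, 2 of the 18 were counted as higher, SPP1 (1.63) and CCN2 (1.00), against 0.169% of all genes. With the combination, SPP1 was higher than with GEM (1.85, 2.28% of all genes) and CCN1 lower than with VPA (-1.57, 1.06%).

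HSPG2, perlecan, a heparan sulfate proteoglycan of basement membranes, was the only one of 9 basement membrane partners counted, as higher with VPA and with GEM over untreated (1.20% and 0.936% of all genes) and as lower with the combination over GEM and over VPA (1.13% and 1.06%). It stood at 8.57 with the combination, 9.93 with VPA, 9.98 with GEM and 8.60 untreated, so that both single-drug arrays lay above the others, as for LAMB2. KRT7, keratin 7, an epithelial marker, was also high on both single-drug arrays, at 8.93, 11.50, 11.14 and 9.53 on the combination, VPA, GEM and untreated arrays. It was the only one of the 7 epithelial markers counted, and the others had log2 ratios over untreated between -0.15 (EPCAM) and 0.86 (CDH1) with VPA and between -0.19 (EPCAM) and 0.98 (CDH1) with GEM. EPCAM, an epithelial adhesion molecule, thus ran the other way, and stood at 12.84, 12.68, 12.63 and 12.83. The summed log2 level of the 7 markers was 84.3 with the combination, 89.3 with VPA, 89.2 with GEM and 84.7 untreated, and its part in the results for the matrix genes was not tested.

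None of 24 integrin adaptor and kinase genes measured (talins, kindlins, vinculin, paxillin, FAK, SRC and others) and none of 5 hemidesmosome genes was counted in any of the 6 comparisons, where the shares of all genes counted in 1 direction lay between 0.0163% and 2.28%. Among 21 collagen folding and crosslinking enzymes 0 were counted over untreated with any treatment. With the combination over GEM, PLOD2, a collagen lysyl hydroxylase, and P3H2, a prolyl hydroxylase, were higher (1.23 and 1.40) and LOXL4, a lysyl oxidase relative, was lower (-1.11), against 2.28% of all genes higher and 1.13% lower. Of 18 matrix proteases and inhibitors only MMP7, matrilysin, was counted, at 1.27 for the combination over GEM, and of 10 matrix receptors other than integrins only CD47, a thrombospondin receptor, at 1.11 in that comparison.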

How the data were processed

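RNA from 4 conditions of HuCCT1 cells was measured on 1 array each. The authors deposited log2 intensities, normalized in GeneSpring GX 11.5 per the labels; RMA is named by the submitters' processing notes. RMA corrects background, equalises probe distributions and compresses low values, so that ratios of dim genes are understated. Scanner files were not used here. The platform annotation gave 1 symbol to 19310 of 28869 rows, several to 1752 and none to 7807. A gene took the mean of its rows, and of the 84 members only COL11A2 had more than 1 row (3 of 86 member rows).

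The members and lists were chosen with earlier results of these data known. Named genes were all members counted in a comparison, FN1, TGM2 and preset epithelial, fibrillar and leukocyte members, and up to 4 counted genes of each further list. Other genes named, and the subdivisions of the classes, were chosen after values were seen. Counts over all genes include genes under the level limit. The planned search of member proteins for RGD was not run. With limma 3.58.1 (R 4.3.3), average drug effects were fitted with 1 residual degree of freedom and Benjamini-Hochberg adjustment. The counting and the fit were run on simulated data with noise independent between arrays. For the fit these data held no departure from additivity. The simulation therefore does not show what the fit could call on the real arrays. Python 3.11.15 and numpy 2.4.6 were used for the rest.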

Additional observations from a re-analysis of the deposited data

Results flagged for a closer look

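Some members changed one way with a drug given alone and the opposite way when that drug was added to the other. With GEM, FN1, TGM2, LAMB2 and LAMB3 were at least 2-fold higher than untreated when GEM was given alone and at least 2-fold lower than VPA alone when it was added to VPA. The log2 difference between both changes was -3.66 for FN1, -3.47 for TGM2, -2.35 for LAMB2 and -2.24 for LAMB3. LAMB3 was no longer 2-fold lower than VPA alone once arrays were centred on their medians (-0.98). With VPA, LAMB2 did so, with the same difference of -2.35. FN1 did so too when the columns were quantile-normalized again, with -1.03 for the combination over GEM, against -0.95 as deposited. Each change rests on a single pair of arrays, and the difference was not tested. At the level of all genes a departure of -1 or lower was found in 4.74%, which is a looser limit than opposite 2-fold changes. The share of all genes with opposite 2-fold changes was not counted, so that these members have no like background. The changes also run along the close pairs of arrays given above.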

How the results depend on the processing

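Counts of members depended on the fold limit. At 1.5-fold and at 3-fold there were 13 and 3 members for VPA over untreated (6 at 2-fold), 10 and 2 for GEM over untreated (6), 5 and 0 with the combination against untreated (3), 8 and 0 for the combination over GEM (2), and 10 and 0 for the combination over VPA (5). For VPA over GEM there was 1 at 1.5-fold and 0 at 2-fold and 3-fold. The shares of all genes at 1.5-fold and 3-fold were not counted. These member counts therefore show only the dependence on the limit. Over receptors that passed the level filter alone, which favours the array where a gene is high, the median log2 ratio was 0.37 for VPA over untreated (0.08 over all), 0.19 for GEM over untreated (0.04), 0.23 with the combination against untreated (0.00) and 0.23 for VPA over GEM (0.08), while the combination over VPA gave -0.20 (-0.08). Over ligands that passed the level filter, the median was 0.19 for VPA over untreated (0.09 over all) and 0.18 for GEM over untreated (0.10). The difference between receptors and ligands was not tested. Repeated quantile normalization, median centring, the choice of row and the other level filters kept the counts within 1.5 times. With these settings the class medians stayed within 0.104. That limit is a robust SD per array from the closest pair, the combination and untreated arrays. These arrays differ in treatment, so that the limit is no replicate error. Single calls changed for COL12A1, FN1 and LAMB3 as given above, and no called ratio changed sign. limma called 0 members under all 5 alternatives for each drug. The main fit, whose 1 residual degree of freedom also holds the departure from additivity, called 0 of all 11808 genes. The unchanged 0 is therefore no measure of stability. No paired analysis was possible because each condition has 1 array. Low intensities limit what can be said of the 45 members below the array medians.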
